A study of Mus musculus with 8 samples.

Results

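The chemokine, cytokine and receptor genes of the mouse heart were compared between females and males at 2 ages. The genes were taken by symbol: Ccl, Cxcl, Xcl, Cx3c, Ccr with a digit and Cxcr (chemokines and their receptors), Il with a digit (interleukins and their receptors), Tnf (the tumour necrosis factor family) and Csf (colony stimulating factors), without Ccl25 and the Tnfaip genes. This gave 66 genes on 67 of the 9607 rows of the table. Of these genes, 58 were measured on 3 or 4 arrays at both ages and were tested among 7812 rows. The rule uses symbols only, but it was set with earlier results of these data known.

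All mice were C57BL/6, an inbred strain, and the labels name no other allele and no treatment. RNA from whole hearts was combined into 4 pools, each of 6 animals: females and males aged 2 months, and females and males aged 8 months. The female and male pools of an age were hybridised together on 4 Agilent cDNA arrays with 2 dyes, and the female pool was labelled with Cy3 on replicates 1 and 3 and with Cy5 on the other two. Every value below is a log2 ratio of the female over the male pool, so 1 stands for 2-fold more RNA in the female pool and 0 for equal amounts. Each age's ratio averages the 2 dye orientations, and its SD is the spread of the technical arrays, not of mice. With 1 pool per sex, a difference shared by all hearts and one from a single heart cannot be told apart. Nor can fewer cells of a type be told apart from less RNA per cell, since whole tissue was measured.

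Chemokines are small secreted proteins that steer leukocytes through receptors on their surface. CC chemokines attract mainly monocytes, macrophages, eosinophils and lymphocytes, and several CXC chemokines attract neutrophils. Interleukins, TNF family ligands and colony stimulating factors regulate how these cells grow, survive and become activated. In the heart, resident macrophages, endothelial cells and fibroblasts make many of these signals, and Ccl2 is best known for drawing Ccr2-bearing monocytes into injured muscle.

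The labels were checked with sex-linked genes: Xist was at 2.44 and 3.45 at 2 and 8 months, Kdm5d at -2.43 and -2.88, and Eif2s3y at -3.18 and -1.87, with the sign following the female pool on all 8 arrays. The table gives ratios only, so the levels of heart or leukocyte markers cannot be read from it. Exact zeros, 6.38 to 13.9% of the values of an array, were treated as no measurement. Replicates 1 and 2 at 8 months had a wide spread (interquartile range 1.18 and 1.56, against 0.30 to 0.46 on the other 6 arrays) with a trend along the probe order, so 8-month ratios are also given from replicates 3 and 4. Over all rows at 2 months, correlations were 0.780 and 0.856 between arrays labelled the same way round and 0.0097 to 0.256 between swapped arrays. At 8 months replicates 1 and 2 correlated at -0.450. The number of arrays limits the precision, and binding of one cDNA probe by the transcript of a related gene was not tested.

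Chemokine and cytokine genes leaned toward the female pool at 8 months and not at 2 months. Of the 58 tested genes, 24 (41.4%) had a positive ratio at 2 months and 37 (63.8%) at 8 months, against 46.4% and 45.0% of all rows tested. On replicates 3 and 4 at 8 months, 41 of 59 (69.5%) were positive, against 49.6% of all rows. The median of the genes was -0.041 at 2 months and 0.18 at 8 months, both from all arrays and from replicates 3 and 4 (0.087 at 8 months with exact zeros kept as values), while the median of all rows was -0.016, -0.032 and -0.0015. On single arrays the median was -0.051, 0.022, -0.18 and 0.050 on replicates 1 to 4 at 2 months, and 0.30, 0.18, 0.12 and 0.28 at 8 months. The 4 arrays at 8 months thus all had a positive median, and those at 2 months had both signs.

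Over both ages together no cytokine-system gene passed the test. The test was limma on the 2 age values (n = 2 pairs of pools, 1 residual degree of freedom), called at a Benjamini-Hochberg adjusted p below 0.05 over all 7812 rows, and it called 0 of the 58 genes and 0.0896% of all rows. At an unadjusted p below 0.05 in limma there were 13 of 58 genes (22.4%) and 10.4% of all rows. Limma over single arrays had a term for the dye and none for the age. Its spread thus mixes technical noise with the difference between the ages, and arrays are not separate animals. It also called 0 of the 58 genes, with 15 (25.9%) at an unadjusted p below 0.05 in limma, against 11.2% of all rows. A single age, and the contrast of the ages, allow no test over animals. There, genes were listed by a size rule, which asks for a 1.5-fold or larger mean ratio and for the same sign on each measured array of that age.

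By size, 9 of 58 genes (15.5%) were higher in the female pool at 8 months, against 1.68% of all rows, and 0 were lower, against 1.31%. The 9 were the CC chemokines Ccl2, Ccl4, Ccl7 and Ccl8, the CXC chemokines Cxcl5 and Cxcl10, the interleukins Il1b and Il33, and Tnfrsf11b. From replicates 3 and 4, 13 of 59 (22.0%) were higher, against 2.08% of all rows, and 0 were lower, against 1.26%. This set held 8 of the 9, all but Ccl4, and added Ccl9, Ccl12, Csf2rb2, Il18bp and Il18rap. At 2 months 2 genes (3.45%), Ccl28 and Il17ra, were higher, against 2.41% of all rows, and 4 (6.90%), Ccl7, Ccr2, Cx3cr1 and Tnf, were lower, against 1.77%. Some of these listings depend on 1 array or on the processing: without replicate 1 at 8 months Ccl4 was at 0.47 and Cxcl10 at 0.49, and without replicate 3 at 2 months Ccl7 was at -0.56 and Tnf at -0.50, all under 1.5-fold. Cx3cr1 was at -0.58 without replicate 1 and at -0.56 without replicate 4 at 2 months. Ccl4 at 0.42 and Cxcl10 at 0.55 were not listed with the arrays scaled to a common spread, nor was Ccl7 at 2 months with the trend along the probe order removed (-0.58). Il1b could not be tested without replicate 3 at 2 months. That array gave its only 2-month value with the female pool in Cy3 (-0.70).

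**Figure D1:**
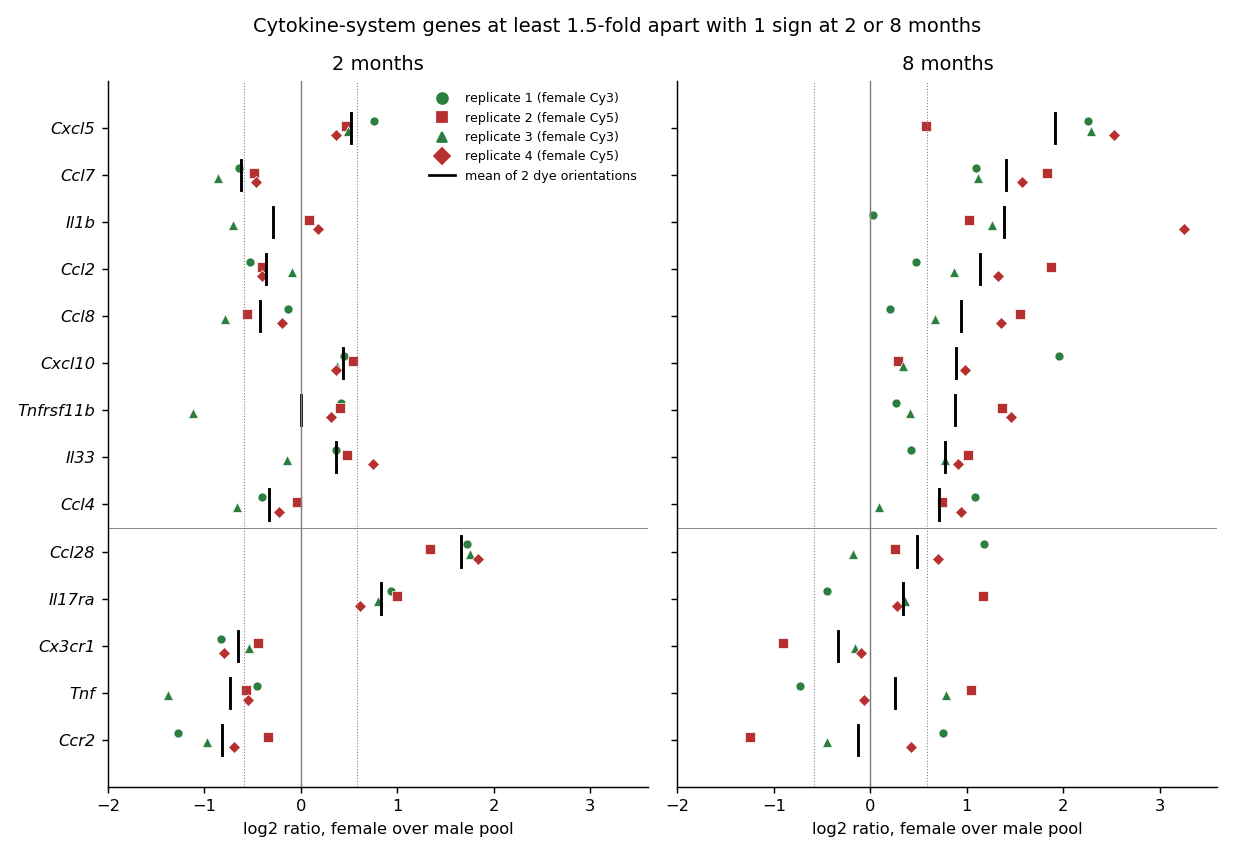
Log2 ratio of the female over the male pool on each array (points, shaped by replicate and coloured by the dye of the female pool) for the 14 genes listed by size at 8 months (above the horizontal line) or only at 2 months (below it); black bars are the means of the 2 dye orientations and dotted lines mark 1.5-fold. Cxcl5, Ccl7 and Ccl2 lie to the right of 0 on every 8-month array, and Ccl28 lies between 1.35 and 1.84 at 2 months.

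The monocyte chemoattractant genes Ccl2, Ccl7 and Ccl8 lay on the female side together at 8 months. Their cluster on chromosome 11 runs in the order Ccl2, Ccl7, Ccl11, Ccl12, Ccl8 and Ccl1. Of these 6 genes, 5 were tested. Ccl2, the main attractant of Ccr2-bearing monocytes, was at -0.52, -0.40, -0.10 and -0.40 on the 4 arrays at 2 months and at 0.47, 1.88, 0.87 and 1.32 at 8 months. Ccl7, a further attractant of monocytes, was at -0.64, -0.48, -0.86 and -0.47 and then at 1.10, 1.83, 1.11 and 1.57. Ccl8, the third member of the monocyte chemoattractant group here, was at -0.13, -0.55, -0.79 and -0.20 and then at 0.21, 1.55, 0.67 and 1.36. All 3 genes were thus lower in the female pool on every array at 2 months and higher on every array at 8 months, with no overlap between the ages. Their 8-month arrays followed the dye in part. In each of the 3 genes the arrays with the female pool in Cy5, replicates 2 and 4, were highest. The size of the 8-month ratios thus differed with the dye, while their sign did not.

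In mean, the Ccl2 ratio was -0.36 ± 0.18 at 2 months and 1.13 ± 0.60 at 8 months (SD, n = 4 arrays each), which is 2.19-fold more in the older female pool. Ccl7 was at -0.61 ± 0.18 and 1.40 ± 0.36, or 2.65-fold at 8 months, and Ccl8 at -0.42 ± 0.31 and 0.95 ± 0.62, or 1.93-fold. On replicates 3 and 4 at 8 months the ratios were 1.09, 1.34 and 1.01. Averaged over both ages the opposite signs partly cancelled, to 0.39 for Ccl2, 0.39 for Ccl7 and 0.26 for Ccl8 (limma adjusted p = 0.765, 0.822 and 0.832). The 3 genes differed between the ages by 1.49, 2.02 and 1.36 on the log2 scale.

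The remaining pair of this cluster did not share this pattern on all arrays. Ccl12, which in mice also acts through Ccr2, was at 0.014, 0.22, -0.51 and 0.26 at 2 months and at 2.54, -0.13, 0.41 and 1.14 at 8 months. Its mean of 0.99 ± 1.15 at 8 months came with both signs, and replicate 1 was far above the others. Ccl11, eotaxin, which attracts eosinophils, was at -0.52, 0.055, -0.26 and -0.20 and then at -0.91, 0.070, -0.46 and -0.50. Its means of -0.23 and -0.45 lay on the male side at both ages, although its gene sits between Ccl7 and Ccl12. The Ccl7 and Ccl11 probes had neighbouring feature numbers, 12080 and 12081, with the same local trend at 8 months (-0.65 on replicate 1 and 0.42 on replicate 2). With that trend removed, the 8-month ratios were 1.47 for Ccl7 and -0.39 for Ccl11.

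**Figure D2:**
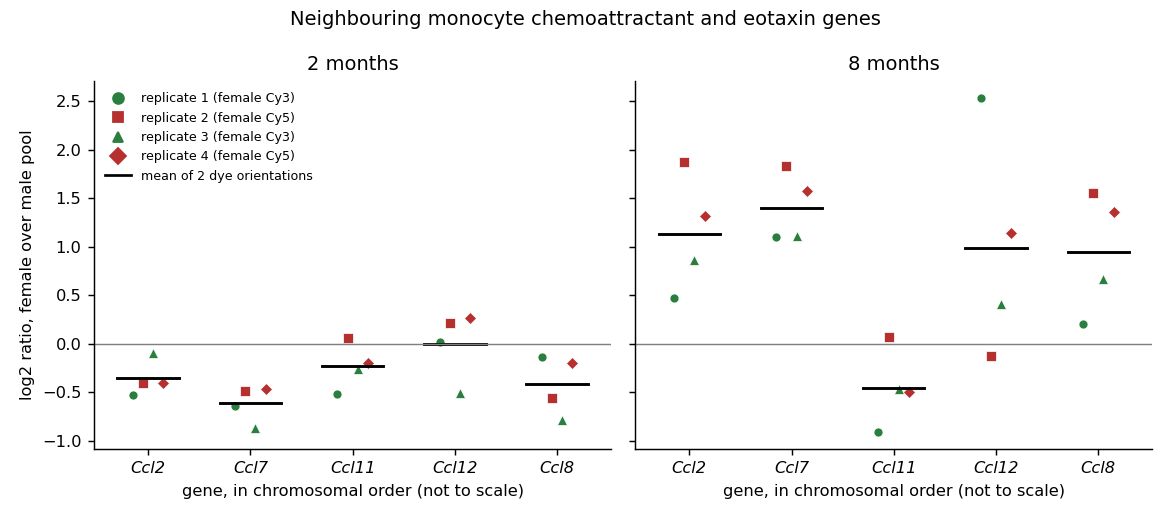
Log2 ratio of the female over the male pool on each array at 2 months (left) and 8 months (right) for the 5 tested genes of the Ccl2 cluster, in the order in which they lie on the chromosome (spacing not to scale); points are single arrays by replicate and dye, black bars the means of the 2 dye orientations. Ccl2, Ccl7 and Ccl8 lie below 0 on every 2-month array and above 0 on every 8-month array, while Ccl11 has means of -0.23 and -0.45.

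Most macrophage markers had the same order of the ages. At 2 months 0 of the 10 tested markers were positive (median -0.42, range -0.80 to -0.25), and at 8 months 8 of 10 were positive (median 0.27, range -0.47 to 0.92), with 9 of 10 on replicates 3 and 4. Adgre1, a macrophage surface protein, was at -0.57 and 0.22, and the Fc receptor gene Fcgr1 at -0.80 and 0.92. C1qa, at -0.80 and -0.22, and Cd163, at -0.35 and -0.47, were negative at both ages. The part of these cells in the chemokine ratios was not tested.

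Promoter sequence is shown for Ccl8 and Ccl12 of this cluster, to set a gene of the 8-month list beside a neighbour with both signs, and for Cxcl10 and Il1b, a chemokine and an interleukin gene of that list. The stretches are the 250 bases before the RefSeq start on assembly GRCm38.p6, written 5′ to 3′ on the gene's strand: Ccl12 at chr11:82101595-82101844 and Ccl8 at chr11:82114935-82115184 on the plus strand, Cxcl10 at chr5:92348890-92349139 and Il1b at chr2:129371140-129371389 on the minus strand. Capitals mark matches, on either strand, to TATAAA (the TATA box), GGNNNTTCC (a kB motif, the kind bound by NF-kB), GAAANNGAA (an interferon-stimulated response element) and TGANTCA (an AP-1 motif).
Ccl12: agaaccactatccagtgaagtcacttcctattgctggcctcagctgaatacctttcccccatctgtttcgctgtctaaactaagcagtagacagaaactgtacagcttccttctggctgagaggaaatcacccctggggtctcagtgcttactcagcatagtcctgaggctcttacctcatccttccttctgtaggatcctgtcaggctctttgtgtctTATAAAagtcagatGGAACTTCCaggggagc
Ccl8: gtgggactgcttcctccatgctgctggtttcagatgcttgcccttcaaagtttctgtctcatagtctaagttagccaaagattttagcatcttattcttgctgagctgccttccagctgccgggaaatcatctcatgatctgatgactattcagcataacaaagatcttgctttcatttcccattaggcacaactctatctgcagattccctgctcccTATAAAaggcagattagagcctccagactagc
Cxcl10: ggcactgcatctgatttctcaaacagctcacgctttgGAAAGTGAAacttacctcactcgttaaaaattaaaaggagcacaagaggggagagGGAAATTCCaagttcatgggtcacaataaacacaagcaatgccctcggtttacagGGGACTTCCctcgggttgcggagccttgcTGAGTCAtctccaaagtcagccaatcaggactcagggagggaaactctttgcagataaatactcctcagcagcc
Il1b: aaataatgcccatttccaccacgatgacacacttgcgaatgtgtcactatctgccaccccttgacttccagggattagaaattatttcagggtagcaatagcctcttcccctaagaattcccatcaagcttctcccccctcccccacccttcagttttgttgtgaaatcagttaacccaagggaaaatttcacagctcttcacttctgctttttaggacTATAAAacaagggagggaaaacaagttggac
A TATA box stood at -31 to -26 from the start in Ccl12 and Il1b and at -32 to -27 in Ccl8. A kB match stood at -17 to -9 in Ccl12, and Cxcl10 had kB matches at -158 to -150 and -103 to -95, the interferon motif at -213 to -205 and AP-1 at -74 to -68. Of all 32851 mouse promoters of this length in the RefSeq table, 12.4% held the TATA box, 15.7% the kB motif, 7.13% the interferon motif and 6.75% the AP-1 motif. Of the 49 genes of the 66 with an entry, 15, 19, 10 and 5 held them in any of their promoters. Some of these genes have several promoters, so counts per gene and shares per promoter are not directly comparable. Such matches are letters in a window and do not show that a factor binds there.

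A further CC cluster on chromosome 11 runs Ccl5, Ccl9, Ccl6, Ccl3 and Ccl4, and 4 of the 5 genes were tested. Ccl4, made by activated macrophages and lymphocytes, was at -0.40, -0.034, -0.66 and -0.23 at 2 months and at 1.08, 0.74, 0.090 and 0.94 at 8 months. Its means were -0.33 ± 0.27 and 0.72 ± 0.44, a difference of 1.04 with no overlap of the arrays, and 0.52 on replicates 3 and 4. Ccl3, an inflammatory chemokine of macrophages, was at -0.086, -0.33, -0.34 and -0.12 and then at 0.53, 1.83, -0.27 and 1.12. Ccl3 was therefore lower on all arrays at 2 months but had both signs at 8 months, where its mean was 0.80 ± 0.89 and the 2 arrays with the female pool in Cy5 were highest. Ccl9, a chemokine of myeloid cells, was at -0.18 and 0.61, with 0.62 on replicates 3 and 4. Ccl5, made largely by T cells, stood apart from its neighbours at 0.28 and 0.24 at the 2 ages, and its arrays followed the dye, with 0.030 and -0.039 on Cy3 arrays against 0.48 and 0.64 on Cy5 arrays at 2 months.

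Ccl28 was the 1 gene of the 58 that met the size rule for a lower ratio at 8 than at 2 months on all arrays. Ccl28, which epithelia make and which attracts plasma cells through Ccr10, was at 1.72, 1.35, 1.76 and 1.84 on the arrays at 2 months, all well on the female side. At 8 months it was at 1.18, 0.25, -0.18 and 0.71, with both signs and below every 2-month array. The means were 1.67 ± 0.22 (3.17-fold) and 0.49 ± 0.59, and 0.26 on replicates 3 and 4. Over both ages Ccl28 was at 1.08 ± 0.27 (SE, n = 2 pool pairs; limma adjusted p = 0.334). Without replicate 4 at 8 months the limma adjusted p was 0.0049, from 1.02 over both ages, and over all 15 alternatives it ranged from 0.0049 to 0.645. In the same young female pool the 9 tested markers of developing T cells were all higher, at 0.69 to 4.48 (median 2.35, and 0.11 at 8 months), with Rag1 at 4.48, as were 3 of 3 of thymic stroma (median 2.91, and 0.29 at 8 months). The thymic stroma genes include Ccl25, a chemokine left out by the symbol rule, at 2.91 at 2 months and 0.52 at 8 months. Of 5 lung and airway markers, 4 were higher at 2 months (median 1.07) and 3 were positive at 8 months (median 0.37), or 5 on replicates 3 and 4. Among them the surfactant gene Sftpc was at 1.76 ± 0.31 at 2 months and 3.12 ± 1.65 at 8 months (SD, n = 4 arrays), positive on every array. The part of these cells in the Ccl28 ratio, and in the 8-month chemokine ratios, was not tested.

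The other CC chemokines include the Ccr4 ligands Ccl22 and Ccl17, whose arrays overlapped. Ccl22 was at 1.11, 0.78, -0.40 and 0.15 at 2 months and at 0.94, 0.39 and 0.41 on the 3 measured arrays at 8 months, with means of 0.41 and 0.53 and 0.47 over both ages (limma adjusted p = 0.348). Ccl17, the partner ligand, was at -0.043 and 0.18, and Ccl27a, a chemokine of the skin, at -0.088 and 0.19. Of the 13 tested CC chemokines, 3 were positive at 2 months and 12 at 8 months, and their median was -0.18 and 0.61, or 0.42 on replicates 3 and 4. Ccl11 was the 1 negative gene at 8 months.

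Cxcl5, which attracts neutrophils, had the largest ratio of any of the genes at 8 months. It was at 0.76, 0.47, 0.49 and 0.37 at 2 months and at 2.25, 0.58, 2.29 and 2.53 at 8 months. All 8 arrays were thus on the female side, and replicate 2 at 8 months lay far below the other 3. The means were 0.52 ± 0.17 and 1.91 ± 0.90 (3.76-fold), and 2.41 (5.31-fold) on replicates 3 and 4. Over both ages Cxcl5 was at 1.22 ± 0.31 (SE, n = 2 pool pairs; limma adjusted p = 0.335). It was called by limma without replicate 1 at 8 months (1.22, adjusted p = 0.0074) and without replicate 4 (0.97, adjusted p = 0.0092), fits that rest on 2 values per gene. The spread in these fits came largely from all rows, not from Cxcl5. Over its 15 alternatives the limma adjusted p ranged from 0.0074 to 0.645. Neutrophil markers were positive in 7 of 7 at 8 months (median 0.42, range 0.024 to 0.77) and in 2 of 7 at 2 months (median -0.22, range -0.49 to 2.01), with 6 of 7 on replicates 3 and 4 at 8 months. Mmp9 was at -0.49 and 0.59 and S100a9 at -0.23 and 0.57, while lactoferrin, Ltf, was at 2.01 ± 0.29 at 2 months and 0.77 ± 0.38 at 8 months (SD, n = 4 arrays), positive on every array. The part of these cells in the Cxcl5 ratio was not tested.

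The genes next to Cxcl5 on chromosome 5 are Ppbp, Pf4, Cxcl3, Cxcl15, Cxcl1 and Cxcl2, and 4 of the 7 were tested. The platelet chemokine genes Ppbp and Pf4, which are outside the symbol rule, were at -0.95 and -0.56 at 2 months and at 0.28 and 0.10 at 8 months. Cxcl15, a chemokine of lung epithelium, was at -0.077 and 0.72, with both signs among the arrays of each age. At both ages Cxcl5 had the highest ratio of the 4.

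Cxcl10, an interferon-induced ligand of Cxcr3 that attracts activated T cells, was likewise on the female side on each of the 8 arrays. It was at 0.45, 0.55, 0.38 and 0.37 at 2 months and at 1.96, 0.29, 0.34 and 0.98 at 8 months. The 2-month arrays lay close together, and replicate 1 at 8 months was far above the rest. The means were 0.44 ± 0.082 and 0.89 ± 0.78, and 0.66 ± 0.16 over both ages (SE, n = 2 pool pairs; limma adjusted p = 0.316). Cxcl9, which shares the receptor Cxcr3 and lies close to Cxcl10 in the genome, was on the other side, at -0.33, -0.28, -0.30 and -0.46 at 2 months and at -1.47, 1.03, -0.35 and -0.22 at 8 months. Its means were -0.34 ± 0.081 and -0.25 ± 1.02. At 2 months the arrays of the 2 ligands did not overlap.

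The remaining chemokines had smaller or mixed ratios. Cx3cl1, the membrane-bound ligand of Cx3cr1, was lower in the female pool on all 2-month arrays, between -0.83 and -0.36 (mean -0.53), and ranged from -0.89 to 1.13 at 8 months (mean 0.20). Cxcl12, which holds blood stem cells and lymphocytes in tissues through Cxcr4, was at -0.017 and -0.17. Xcl1, a chemokine of natural killer and T cells, was at -0.50 and -0.44, with arrays from -1.34 to 0.42, and at -0.47 over both ages (limma adjusted p = 0.342).

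**Figure D3:**
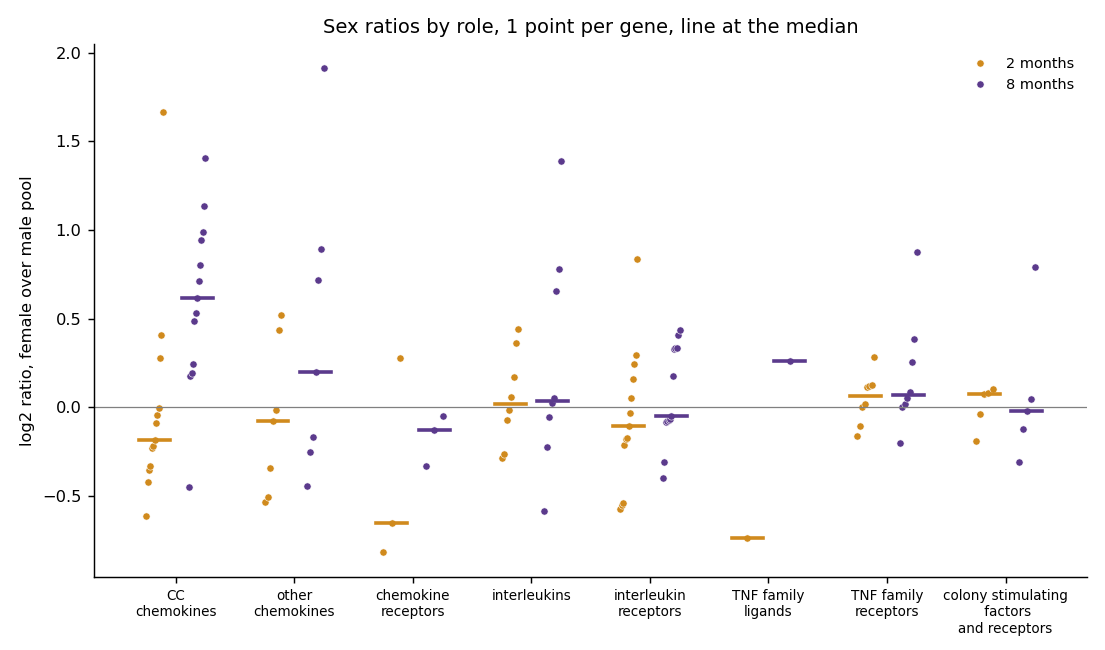
Log2 ratio of the female over the male pool for each tested gene (points) at 2 months (orange) and 8 months (purple), grouped by role, with lines at the group medians. The CC chemokines have medians of -0.18 and 0.61, while the medians of both interleukin groups and of the TNF family receptors lie between -0.10 and 0.068.

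Chemokine receptors of monocytes lay on the male side at 2 months. Ccr2, the receptor of Ccl2, Ccl7 and Ccl12 that marks inflammatory monocytes, was at -1.28, -0.34, -0.97 and -0.69 at 2 months, lower in the female pool on all arrays (mean -0.82 ± 0.40). At 8 months it was at 0.76, -1.25, -0.45 and 0.42, with a mean of -0.13 ± 0.90 and -0.013 on replicates 3 and 4. Ccr2 did not show the 8-month ratio of its ligands, and over both ages it was at -0.47 (limma adjusted p = 0.469). Cx3cr1, a receptor of patrolling monocytes and resident macrophages, was at -0.83, -0.44, -0.53 and -0.80 at 2 months and at -0.91, -0.16 and -0.10 on the 3 measured arrays at 8 months. It was lower on every measured array, with means of -0.65 ± 0.19 and -0.33 ± 0.45 and -0.49 over both ages (limma adjusted p = 0.361). Cxcr5, the receptor of B cell follicles, was between 0.058 and 0.48 at 2 months (mean 0.28) and between -1.18 and 1.30 at 8 months (mean -0.049). Ccr7, which brings T cells and dendritic cells to lymph nodes, was at 1.06, 1.31, 0.60 and 1.42 at 2 months but was measured only on replicates 3 and 4 at 8 months, at 0.75 and -0.41, and so was not tested.

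Of the interleukins, Il1b and Il33 differed by size at 8 months. Il1b, the inflammatory cytokine released by activated macrophages, was at 0.085, -0.70 and 0.18 on replicates 2 to 4 at 2 months and at 0.025, 1.02, 1.26 and 3.25 at 8 months. Replicate 4 at 8 months stood highest and replicate 1 near 0, so the mean of 1.39 ± 1.35 carries a wide spread. On replicates 3 and 4 it was 2.26, and over both ages 0.55 (limma adjusted p = 0.694). With the trend along the probe order removed, replicate 1 was at -0.44 and Il1b no longer had 1 sign. Il33, an alarm signal stored in the nuclei of stromal and endothelial cells, was at 0.37, 0.48, -0.15 and 0.75 at 2 months and at 0.42, 1.01, 0.77 and 0.91 at 8 months. It was higher on 7 of 8 arrays, with means of 0.36 ± 0.38 and 0.78 ± 0.26 and 0.57 ± 0.15 over both ages (SE; limma adjusted p = 0.342).

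The other 6 tested interleukins did not meet the size rule. Il18, an inflammasome product like Il1b, was at 0.17 at 2 months and ranged from -0.28 to 1.81 at 8 months (mean 0.65), with 0.41 over both ages (limma adjusted p = 0.458). Il16, a T cell attractant, was higher on all 2-month arrays, from 0.081 to 0.61 (mean 0.44), and at 0.023 at 8 months. Il12b, a subunit shared by 2 cytokines of T cell polarisation, was at -0.015 and -0.58, but at -0.051 on replicates 3 and 4. Il13, Il15 and Il27 had ratios between -0.26 and 0.058 at both ages. The median of the 8 interleukins was 0.021 at 2 months and 0.037 at 8 months.

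Il17ra was the interleukin receptor listed by size at 2 months. This receptor of the Il17 cytokines was at 0.93, 1.00, 0.80 and 0.61 at 2 months, higher in the female pool on every array (mean 0.83 ± 0.17). At 8 months it was at -0.45, 1.16, 0.36 and 0.27 (mean 0.34 ± 0.66), so the ages overlapped, and over both ages it was at 0.59 (limma adjusted p = 0.357). Il4ra, the shared receptor chain of Il4 and Il13, was at -0.14, -0.72, -0.49 and -0.80 at 2 months and at -0.71, -0.67, 0.34 and -0.55 at 8 months. It was lower on 7 of 8 arrays, with replicate 3 at 8 months alone on the female side, and was at -0.47 over both ages (limma adjusted p = 0.353). Il7r, the receptor of lymphocyte survival, was higher on all 7 measured arrays, from 0.13 to 0.60, with means of 0.29 and 0.44 and 0.36 over both ages (limma adjusted p = 0.436).

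Il13ra1, which pairs with Il4ra, had opposite signs at the 2 ages on every array, by small amounts. It was at -0.35, -0.041, -0.31 and -0.010 at 2 months and at 0.64, 0.19, 0.091 and 0.43 at 8 months. Its mean ratios of -0.18 ± 0.18 and 0.34 ± 0.25 were both under 1.5-fold. Il18rap, a chain of the Il18 receptor, was at -0.57 and -0.080 but at 0.63 on replicates 3 and 4, and Il18bp, which neutralises Il18, was at -0.029 and 0.41 with 0.59 on those replicates. Il1r1 and Il1rap, the chains of the Il1 receptor, were at -0.17 and -0.55 at 2 months and at 0.33 and -0.073 at 8 months. Il6st, the signal chain shared by the Il6 family, was within -0.23 and 0.076 on all 8 arrays. Il2ra, Il2rb, Il27ra and Il3ra lay between -0.31 and 0.24 at both ages.

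In the TNF family, the ligand Tnf was listed by size at 2 months and a decoy receptor at 8 months. Tnf, the inflammatory cytokine of macrophages, was at -0.45, -0.57, -1.38 and -0.55 at 2 months, lower in the female pool on every array (mean -0.74 ± 0.43). At 8 months it was at -0.73, 1.04, 0.79 and -0.064, with both signs (mean 0.26 ± 0.81). Tnfrsf11b, osteoprotegerin, a secreted decoy for the bone-resorption signal Tnfsf11, was at 0.41, 0.40, -1.11 and 0.32 at 2 months and at 0.26, 1.37, 0.42 and 1.46 at 8 months. It was higher on 7 of 8 arrays, replicate 3 at 2 months being the exception, with means of 0.0049 ± 0.75 and 0.88 ± 0.63 and 0.94 on replicates 3 and 4. Its 8-month arrays followed the dye in part, with the Cy5 arrays highest.

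The other TNF receptors lay nearer 0. Tnfrsf1b, the TNF receptor of leukocytes, was lower on all 2-month arrays, between -0.29 and -0.025, and at 0.38 at 8 months, while Tnfrsf1a, the widely expressed receptor, was at 0.018 and 0.084. Tnfrsf9, a costimulator of T cells, was at 0.29 and 0.052. Tnfrsf4, Tnfrsf10b, Tnfrsf17 and Tnfrsf23 had ratios between -0.20 and 0.26 at both ages. Tnfsf11 itself was measured on replicates 2 and 4 at 2 months (-0.031 and 0.21) and on replicates 3 and 4 at 8 months (0.68 and 1.28), and was not tested.

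Among the colony stimulating factors, Csf1 had small and even ratios. Csf1, which maintains macrophages, was at -0.15, -0.20, -0.17 and -0.23 at 2 months and at -0.25, -0.36, -0.21 and -0.42 at 8 months. It was lower in the female pool on all 8 arrays, by small amounts: -0.19 ± 0.036 and -0.31 ± 0.096, and -0.25 over both ages (limma adjusted p = 0.588). Csf2rb2, a receptor chain for Il3, was at 0.10 at 2 months and at 1.56, -0.10, 0.75 and 0.95 at 8 months (mean 0.79 ± 0.69, and 0.85 on replicates 3 and 4). Csf2, Csf3 and Csf3r, which govern granulocytes and macrophages, lay between -0.12 and 0.083 at both ages.

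Across the ages, 39 of the 58 genes (67.2%) had a higher female ratio at 8 than at 2 months, against 47.1% of all rows, and the median difference was 0.14 against -0.019. For the contrast of the ages the size rule asks for a 1.5-fold or larger gap and for arrays that do not overlap. By it, 4 genes (6.90%) were higher at 8 months, Ccl2, Ccl4, Ccl7 and Ccl8, against 1.57% of all rows. Ccl28 alone was lower (1.72% of the genes, against 1.72% of all rows). With replicates 3 and 4 at 8 months, 14 of 59 (23.7%) were higher, against 3.32% of all rows, and 2 (3.39%), Ccl28 and Il2ra, were lower, against 2.71%. Ccl2, Ccl4, Ccl7, Ccl8 and Il13ra1 (5 genes, 8.62%) were lower on every array at 2 months and higher on every array at 8 months, against 1.05% of all rows. A single sign on every measured array of both ages was found in 5 genes (8.62%), against 3.37% of all rows: Cxcl5, Cxcl10 and Il7r on the female side and Cx3cr1 and Csf1 on the male side. The part of a ratio that follows the dye was larger than the part that follows the sex in 22 of the 58 genes at 2 months and in 26 at 8 months. The same share over all rows was not computed, so these counts cannot be read as particular to these genes. The ages are different pools of mice on different arrays, so an age difference and a difference between the pools cannot be told apart.

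**Figure D4:**
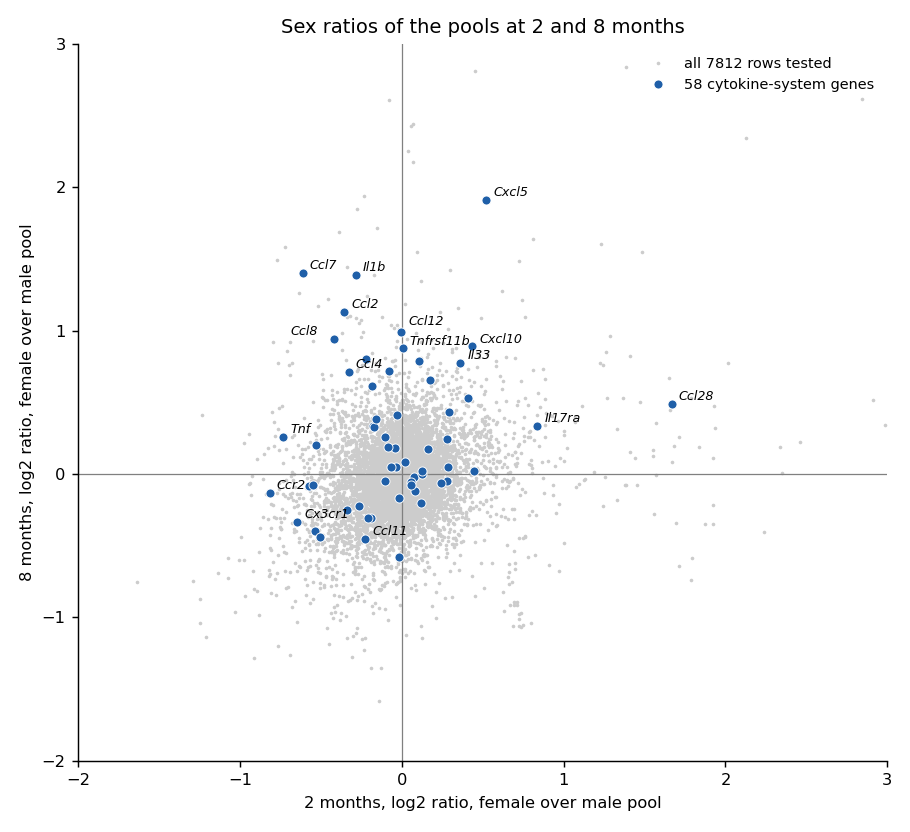
Log2 ratio of the female over the male pool at 8 months against that at 2 months for the 58 tested cytokine-system genes (blue) and all 7812 rows tested (grey, with 15 rows outside the plotted range). Ccl2, Ccl7 and Ccl8 lie at the upper left, higher in the female pool at 8 months only, Cxcl5 is highest at 1.91, and Ccl28 lies far to the right at 1.67.

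The 8 genes that were not tested had too few values. Ccl20 and Il2 were measured on 1 array each, and Il1f5 on 3 arrays at 2 months and none at 8. Tnfsf8 was at -0.076 at 2 months with 1 array at 8 months. Il4 was at 0.42 at 2 months, with -1.05 and 0.39 on the 2 arrays at 8 months. Il7, the only gene of the 66 with 2 probes, had values on 2 arrays at 8 months, and its probes disagreed in sign at both ages: -0.28 and -0.37 for probe 1643, against 0.074 and 0.73 for probe 2806. Ccr7 and Tnfsf11 are described above.

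The lists of signalling, adhesion and otherwise named cytokine genes had medians of -0.028 to 0.12 at 8 months, against 0.18 for the 58 genes. Of 16 tested genes of the JAK-STAT pathway and its SOCS inhibitors, 0 were called by limma. The median was 0.0070 at 2 months and 0.0058 at 8 months. Socs1, an inhibitor of interferon signals, was at 1.00 ± 0.32 at 2 months, Socs3, an inhibitor of Il6 family signals, at 0.78 ± 0.58 at 8 months, and Pias3, an inhibitor of Stat3, at -0.65 at 8 months but -0.055 on replicates 3 and 4. Of 21 genes of NF-kB and its adaptors, 0 were called, and 2 met the size rule at 2 months: Nfkbia, the inhibitor of NF-kB, at 0.71 ± 0.11 and the kinase gene Ikbke at 0.70 ± 0.078. Of all rows, 2.41% were higher by that rule at 2 months, and at 8 months 1.68% were higher and 1.31% lower. Of 11 genes that act below chemokine receptors, 0 were called, and the leukocyte GTPase gene Rac2 was at 0.68 ± 0.30 at 2 months.

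Among 23 cytokine genes with other names, 0 were called by limma, and 4 met the size rule: Cd27, a TNF receptor of T cells, at 1.38 ± 0.66 and Ppbp at -0.95 ± 0.11 at 2 months, and Kit, the stem cell factor receptor, at -1.13 ± 0.21 and Epor, the erythropoietin receptor, at -0.80 ± 0.50 at 8 months. By the same rule 2.41% of all rows were higher and 1.77% lower at 2 months, and 1.31% were lower at 8 months. Among 11 genes of leukocyte adhesion, 0 were called, 5 were positive at 2 months and 9 at 8 months, against 46.4% and 45.0% of all rows. Selplg, the selectin ligand of leukocytes, was at 0.79 ± 0.28 at 2 months, and Selp, the P-selectin of endothelium and platelets, was at -0.039 at 2 months and 0.88 ± 0.22 at 8 months, with 1.05 on replicates 3 and 4. By size, 2.41% of all rows were higher at 2 months and 1.68% at 8 months. The remaining marker lists gave medians at 2 and 8 months of -0.42 and -0.39 for endothelium (7 genes), -0.15 and 0.030 for fibroblasts (6), -0.022 and -0.25 for heart muscle (11), 1.06 and 0.082 for adipocytes (4), 0.17 and -0.18 for mast cells (3) and -0.27 and -0.064 for B and plasma cells (4). Within them, Jchain, a gene of plasma cells, was at 2.61 and the natriuretic peptide gene Nppb at 1.55 at 8 months, and Ucp1 of brown fat at 2.99 at 2 months. Jchain and Nppb stood apart from their lists. At 8 months 2 of 4 B and plasma cell genes were positive, with Cd79a at -0.21 and Cd79b at -0.14, and 3 of 11 heart muscle genes. The part of these cells in the cytokine ratios was not tested.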

How the data were processed

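The deposited table held a log10 ratio for every probe of every array. Per the labels, the authors analysed the images in Feature Extraction 7.1.1 from Agilent. Their normalization was not given in the sources used here. A deposited log10 ratio was multiplied to the log2 scale and its sign was turned to female over male, and exact zeros were left out. Probes were named from the platform annotation and updated by gene ID through RefSeq (assembly GRCm38.p6), used for names, gene order and promoter sequence. All 67 rows matched, and 2 rows that name several genes were left out. Rows of 1 symbol were averaged.

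The sexes were compared over both ages with limma (version 3.58.1, run in R 4.3.3) on 1 value per age. The 2-sided moderated test followed lmFit and eBayes, with Benjamini-Hochberg adjustment over all rows. The procedure was tested on simulated data with variances from the fitted model and the same change at both ages. Those data had no dye effect and no trend along the probe order, so they do not show how the p-values behave here. P-values rest on the spread between 2 pairs of pools, which includes the age difference, moderated by limma toward the spread of all rows. With 1 residual degree of freedom the shared part can dominate. Without replicate 4 at 8 months Ccl28 and Cxcl5 had the same SE, 0.247, which is thus not the spread of either gene. The genes described are those listed by size, those with 1 sign on all arrays, the 3 tested genes of each role with the largest value over both ages, and genes not tested. The remaining genes of each role, among them Ccl3, Ccl9 and Ccl11, were chosen after their values were seen. From the related gene lists, genes past the size rule are given. From the marker lists some of the 3 largest of an age are given, and the macrophage markers that were negative at 8 months. Genes and lists were chosen with earlier results of these data known. Alternatives were arrays scaled or centred, zeros kept, no filter, the lowest-numbered probe, the trend removed, replicates 3 and 4 at 8 months, each array left out, single arrays and a 2-fold size. Promoter motifs were searched on both strands with Python version 3.11.15.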

Additional observations from a re-analysis of the deposited data

Results flagged for a closer look

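In 4 of 46 groups of 4 arrays looked at, 1 array lay apart from the other 3. Chance gives about 1 in 20 such groups where the 4 arrays are alike. That rate need not hold here, since the genes were chosen by their array values and the arrays differ in dye and spread. Cxcl5 was at 0.58 on replicate 2 at 8 months, while its other arrays were at 2.25 to 2.53. Il4ra was at 0.34 on replicate 3 at 8 months and at -0.71 to -0.55 on the others. On replicate 3 at 2 months Tnf was at -1.38, against -0.57 to -0.45, and Tnfrsf11b at -1.11, against 0.32 to 0.41.

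In 5 genes every array at 2 months lay on the male side and every array at 8 months on the female side. The 8-month ratio exceeded the 2-month ratio by 2.02 for Ccl7, the monocyte attractant, 1.49 for Ccl2, 1.36 for Ccl8, 1.04 for Ccl4 and 0.51 for Il13ra1 (log2). These differences were not tested, since each age has 1 pool per sex.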

How the results depend on the processing

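The age differences of Ccl2, Ccl4, Ccl7, Ccl8 and Ccl28 met the size rule in 16 of 16 alternatives, as did the 8-month listings of Ccl2, Ccl7 and Cxcl5 and the 2-month listing of Ccl28. Several alternatives could not have changed these listings. Leaving out an array does not alter the ratios of the other age and cannot make the ages overlap. Dropping the filter changes no ratio, and the choice of probe concerns only Il7, which was not tested. Ccl8, Il33 and Tnfrsf11b lost the 8-month listing only at 2-fold, and Il1b kept it in 14, Cxcl10 in 13 and Ccl4 in 12. Of all rows, 7 were called by limma; the count was 3 with arrays scaled, 0 with zeros kept, 1 with replicates 3 and 4, 4 with the trend removed and 34 over single arrays, and 4 to 105 with 1 array left out. No cytokine-system gene was called except with 1 array left out (0 to 2: Cxcl5 without replicate 1 at 8 months, Cxcl5 and Ccl28 without replicate 4). The 6 genes listed at 2 months became 1 at 2-fold and 5 to 8 with 1 array left out. The 9 at 8 months became 4 at 2-fold and 8 to 14 with 1 array left out, both directions counted. Lower in the female pool were then Il27ra without replicate 1 at 8 months (161 of 7859 rows were lower) and Ccl11 without replicate 2 (177 of 7896 rows). Without replicate 3, Il12b and Il4ra were lower (324 of 7765 rows). The 5 listed for the age difference became 8 with arrays scaled, 16 with replicates 3 and 4, 11 with the trend removed and 5 to 13 with 1 array left out. The 8-month median of 0.18 was 0.087 with zeros kept and 0.17 to 0.19 with 1 array left out. Values near 0 over both ages turned negative for Csf3 (-0.0066 and -0.070 without replicate 3 or 4 at 2 months, -0.034 and -0.17 without replicate 1 or 4 at 8 months, range -0.17 to 0.23) and Cxcr5 (-0.075 and -0.020 without replicate 2 or 3 at 8 months, range -0.075 to 0.31). The cause was not tested. No paired analysis was possible because the test runs on 1 value per age, in which the arrays of an age were already averaged. Signal over background is unknown, so weak probes could not be set apart.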
